A study of Bos taurus with 12 samples.

Results

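Small RNA of the longissimus muscle was compared between d 92 and d 124 of high concentrate feeding in 4 Angus-cross yearling steers, the interval of late finishing. The comparison used 8 of the 12 libraries of the series, 4 per time, and every steer gave 1 library at each time, so each library at d 124 has a partner at d 92. The main fit, its intervals and the exact permutation tests do not use these pairs. Fits with the steer as a block are alternatives. The libraries at d 0, from the same steers before the change of diet, entered the fit for the spread and are given beside some results. All steers had 1 Angus sire and were fed the same corn-based ration one by one, and the 4 sequenced were those whose intramuscular fat content lay nearest the mean of all steers at both late times. In the sample codes, d 92 is written as d 90. The biopsy site moved with time: the right 11th rib was sampled at d 92 and the left 12th rib at d 124. Time, rib and side therefore cannot be told apart.

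MicroRNAs (miRNAs) are short RNAs cut from a hairpin precursor, and they lower the translation and stability of messenger RNAs that pair with their seed. In muscle a small set made by the fibres themselves dominates, while fat cells, vessels, nerves and blood between the fibres add others. The remaining small RNAs of a muscle library are mostly pieces of structural RNAs such as small nucleolar and small nuclear RNAs. A biopsy mixes all of these cells, so fewer cells of a type and less RNA per cell cannot be told apart.

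The table holds 640 rows with a miRBase precursor identifier and 2072 with an Ensembl gene identifier. Of these, 431 miRBase and 883 Ensembl rows varied, 1314 of 2712 in all, and 88 of the 1314 were at the floor (a normalized value of 1, 0 on the log2 scale) in all 8 libraries. The 1002 rows above the floor in at least 4 of the 12 libraries were tested, 368 miRBase and 634 Ensembl. Levels are log2 normalized values, and differences are d 124 minus d 92 on that scale. The table holds no read counts, so depth per library is unknown here. The number of rows above the floor was 915.25 ± 39.4 at d 92 and 938.5 ± 28.9 at d 124 (SD, n = 4 each), a difference of 23.3 rows that was within the spread between libraries (two-sided exact permutation test, p = 0.343).

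No miRNA or other small RNA passed the test between d 92 and d 124. In limma with Benjamini-Hochberg adjustment, 0 of 1002 rows had an adjusted p under 0.05, and the smallest was 0.152. At an unadjusted p under 0.05 with a change of 1.3-fold or more, the limits the study used for its own comparisons, 40 rows passed, which is 3.99% of those tested; 33 were higher (3.29%) and 7 lower (0.699%). Among miRBase rows 6 of 368 passed (1.63%), 3 higher and 3 lower at d 124 (0.815% each). Among Ensembl rows 34 of 634 passed (5.36%), 30 higher (4.73%) and 4 lower (0.631%). The median difference was 0.012 for miRBase rows and 0.0034 for Ensembl rows. In the same order, 190 and 318 rows were higher at d 124 and 178 and 316 lower, so the directions were nearly even in both classes. Quantile normalization gives all libraries nearly the same distribution of values, so an even split over all rows is largely set by it. Without d 124 replicate 1, the library of steer 1, 62 rows passed these limits, 44 higher and 18 lower, and still 0 passed the adjusted p. With the steer as a block and the d 0 libraries left out, 62 rows passed as well, but 36 were higher and 26 lower, so the excess of higher rows was smaller there. Among miRBase rows that fit gave 2 higher and 9 lower, and leaving out d 92 replicate 3 gave 4 higher and 7 lower.

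**Figure D1:**
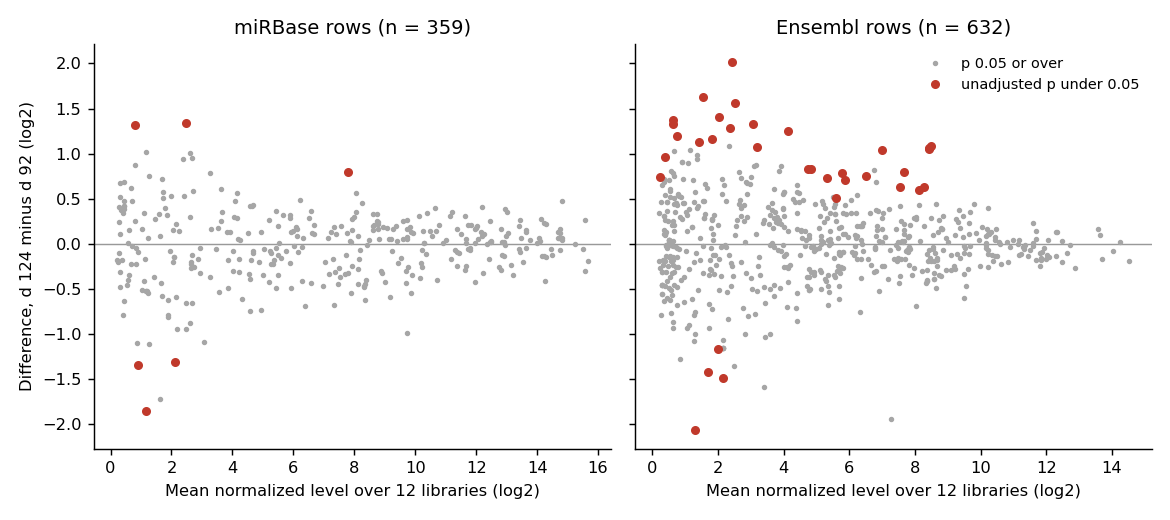
Difference between d 124 and d 92 (log2) against the mean normalized level over the 12 libraries (log2) for tested rows with a recovered level, miRBase rows on the left and Ensembl rows on the right. Filled points have an unadjusted p under 0.05 in limma (6 miRBase and 34 Ensembl rows), and most of those on the right lie above 0 (30 of 34).

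The files give identifiers without names, and a name can be given here to 18 miRNAs that the study lists against d 0 by miRBase identifier. That list was chosen on the same libraries, and both of its comparisons use libraries of d 92 or d 124. At d 124 against d 92, 8 of the 18 were higher and 10 lower, with a median difference of -0.17 beside 0.012 over all miRBase rows. None had an adjusted p under 0.05 (0.918 to 0.995). An unadjusted p under 0.05 in limma was reached by 3 of the 18 (16.7%), all higher at d 124. Of all 368 miRBase rows, 6 reached it (1.63%, with 0.815% higher). Against d 0, the study lists bta-miR-485 as lower at d 92. It lists bta-miR-1248-2 and bta-miR-2346 as higher at d 124. These 3 were thus listed on some of the same libraries in the direction seen here, so their share is no separate test. The libraries of the 2 times overlapped for all 18.

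**Figure D2:**
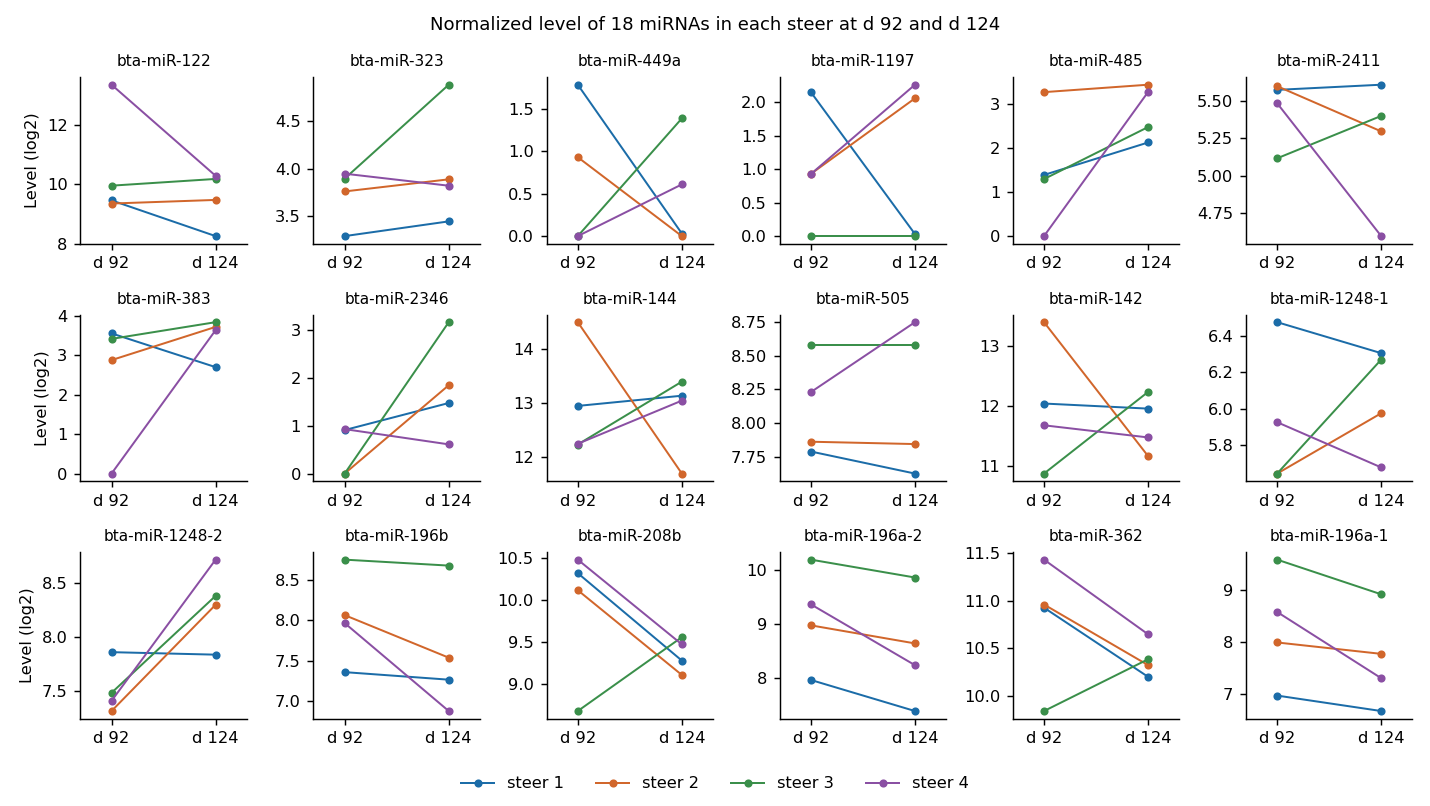
Normalized level (log2) of the 18 miRNAs at d 92 and d 124, with 1 line per steer and a panel per miRNA with its own vertical axis. Lines cross in most panels. For bta-miR-196b, bta-miR-196a-1 and bta-miR-196a-2 all 4 lines go down, and for bta-miR-485 all 4 go up.

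The 3 miRNAs with an unadjusted p under 0.05 were bta-miR-1248-2, bta-miR-2346 and bta-miR-485. The level of bta-miR-1248-2 (MI0010483) at d 92 was 7.86, 7.31, 7.48 and 7.41 in steers 1, 2, 3 and 4. At d 124 it was 7.84, 8.30, 8.38 and 8.72 in the same steers. It was higher in steers 2, 3 and 4, and steer 1 had almost the same level at both times. The difference was 0.79 (standard error 0.29, 1.73-fold, adjusted p = 0.918 from limma), with a 95% interval from 0.16 to 1.43. The exact permutation test over the 70 regroupings of 8 libraries gave p = 0.0571 (two-sided), where 0.0286 is the smallest it can give.

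In the annotation of ARS-UCD2.0, a later build than the one used for alignment, the gene of bta-miR-1248-2 lies within the span of MYO5A and that of its copy bta-miR-1248-1 within EIF4A2. Human miR-1248 overlaps a small nucleolar RNA in an intron of EIF4A2, so reads of such a row can come from the longer RNA. The copy bta-miR-1248-1 (MI0010477) was at 5.92 ± 0.39 at d 92 and 6.06 ± 0.29 at d 124 (SD, n = 4 each). Its difference of 0.13 has a 95% interval from -0.52 to 0.79, and it was higher in 2 of 4 steers. No source used here says how reads were divided among copies.

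The level of bta-miR-2346 (MI0011374), whose gene lies within the span of ASPSCR1, was 0.91, 0, 0 and 0.93 at d 92 in steers 1, 2, 3 and 4. At d 124 it was 1.47, 1.85, 3.16 and 0.61. All 4 libraries at d 124 were above the floor, and 2 of 4 at d 92. Steer 4 had a lower value at d 124, but at both times it was on the lowest step above the floor that rows of its library share. Its difference is therefore the gap between those steps. The difference was 1.31 (standard error 0.48, adjusted p = 0.918 from limma). Without d 124 replicate 3 it was 0.85, with an unadjusted p of 0.0564 in limma. With log2(value + 10) it was 0.29, since the levels are near the floor.

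Of the miRNAs from the imprinted DLK1-DIO3 region, a long maternally expressed miRNA cluster active in muscle and brain, 3 have an identifier here. The level of bta-miR-485 (MI0009842) was 1.39, 3.27, 1.3 and 0 at d 92 in steers 1, 2, 3 and 4, and 2.13, 3.44, 2.48 and 3.28 at d 124. Every steer was higher at d 124, by 0.74, 0.17, 1.18 and 3.28, and the d 92 library of steer 2 lay among those of d 124. The difference was 1.34 (standard error 0.56, adjusted p = 0.959 from limma; two-sided exact permutation p = 0.114), and it was 0.85 without d 92 replicate 4, the library at the floor. With log2(value + 10) it was 0.36, with an unadjusted p of 0.0872 in limma. In the d 92 and d 124 libraries alone, without a block, the unadjusted p was 0.0641 (limma). At d 0 the level of bta-miR-485 was 3.10 ± 0.34 (SD, n = 4), close to that of d 124.

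The other two of the cluster varied in direction between steers. The level of bta-miR-323 (MI0009797) was 3.72 ± 0.30 at d 92 and 4.01 ± 0.62 at d 124 (SD, n = 4 each), and its difference of 0.29 came mostly from steer 3, which was higher by 0.99. Without d 124 replicate 3 the difference was -0.0053. For bta-miR-1197 (MI0010470) the d 92 levels were 2.15, 0.93, 0 and 0.93 and the d 124 levels 0.031, 2.06, 0 and 2.26, with a difference of 0.086 and a 95% interval from -1.23 to 1.41. Steer 1 was lower, steers 2 and 4 were higher, and steer 3 was at the floor at both times.

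MiR-122, the dominant miRNA of liver and known for its part in lipid and cholesterol metabolism, split the steers. Its level (MI0005063) was 9.46, 9.35, 9.95 and 13.36 at d 92 in steers 1, 2, 3 and 4, and 8.25, 9.47, 10.18 and 10.29 at d 124. The differences within steers were -1.21, 0.12, 0.23 and -3.07, so steers 1 and 4 were lower at d 124 and steers 2 and 3 slightly higher. The mean difference was -0.98 (1.98-fold lower, 95% interval from -2.85 to 0.89). It was -0.040 without d 92 replicate 4, -0.55 without d 124 replicate 1, and between -0.96 and -1.38 without any other library.

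The 3 rows of the miR-196 family, whose genes lie in the HOXA, HOXB and HOXC clusters and which act on HOX messenger RNAs, were lower at d 124 in 4 of 4 steers. These 3 rows are not independent, since their mature sequences are alike and reads could be shared between copies. Of all 368 miRBase rows, 25 (6.79%) were lower in all 4 steers and 8 (2.17%) were higher, against 35 (5.52%) and 51 (8.04%) of 634 Ensembl rows. For bta-miR-196b (MI0009768) the level was 7.36, 8.06, 8.74 and 7.96 at d 92 and 7.27, 7.54, 8.67 and 6.88 at d 124. The differences within steers were -0.093, -0.52, -0.073 and -1.08, so those of steers 2 and 4 were the larger.

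The levels of bta-miR-196a-1 (MI0009767) were 6.96, 7.99, 9.59 and 8.58 at d 92 and 6.67, 7.77, 8.92 and 7.30 at d 124. Those of bta-miR-196a-2 (MI0009766) were 7.97, 8.98, 10.20 and 9.37 at d 92 and 7.39, 8.65, 9.87 and 8.24 at d 124. In both rows steer 1 was lowest and steer 3 highest at both times, so the order of the steers held at its ends. The differences of bta-miR-196b, bta-miR-196a-1 and bta-miR-196a-2 were -0.44, -0.62 and -0.59, and each was smaller than its 95% half-width (adjusted p = 0.994 from limma for each). With the steer as a block over 12 libraries the unadjusted p was 0.267, 0.186 and 0.183 in the same order (limma). With that block in the d 92 and d 124 libraries alone it was 0.159, 0.0657 and 0.0604 (limma). None of these fits gave a call for the 3 rows. Leaving out 1 library gave -0.80 to -0.21, -1.06 to -0.18 and -1.04 to -0.21. These values were farthest from 0 without d 92 replicate 1 or d 124 replicate 3, and nearest without d 92 replicate 3, d 124 replicate 1 or d 124 replicate 4. Among these fits only that of bta-miR-196b without d 124 replicate 3 had an unadjusted p under 0.05 (0.0477, adjusted p = 0.999, limma).

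MiR-208b lies in an intron of MYH7, the gene of the slow fibre myosin heavy chain, and is made together with it. Among the miRNAs that define skeletal muscle it is the only one with a paired name here, and it was well above the floor in every library. The level of bta-miR-208b (MI0009774) was 10.32, 10.12, 8.68 and 10.48 at d 92 and 9.28, 9.11, 9.56 and 9.47 at d 124. The differences were -1.04, -1.01 and -1.01 in steers 1, 2 and 4 and 0.88 in steer 3, whose d 92 library had the lowest level of all 8. The SD over steers was 0.83 at d 92 and 0.20 at d 124. The difference was -0.55 (standard error 0.41, adjusted p = 0.994 from limma, two-sided exact permutation p = 0.229). Without d 92 replicate 3 it was -0.95 (unadjusted p = 0.0153, adjusted p = 0.997, limma). Without d 92 replicate 4 it was -0.35 (unadjusted p = 0.437, limma).

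The row bta-miR-362 (MI0009811), from an X-linked cluster within the span of CLCN5, had the sign of bta-miR-208b in each steer. Its differences were -0.73, -0.64 and -0.79 in steers 1, 2 and 4 and 0.54 in steer 3. Its SD over steers was 0.67 at d 92 and 0.19 at d 124, and its d 92 library of steer 3 was again the lowest of the 8. The difference was -0.40 (95% interval from -1.15 to 0.34). With d 92 replicate 3 left out it moved to -0.72 (unadjusted p = 0.0348, adjusted p = 0.997, limma). With d 92 replicate 4 left out it moved to -0.19 (unadjusted p = 0.605, limma).

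MiR-144, transcribed with miR-451 in red cell precursors, and miR-142, found in white and other blood cells, mark blood in the biopsy. The level of bta-miR-144 (MI0009744) was 12.95, 14.51, 12.22 and 12.24 at d 92 and 13.14, 11.68, 13.40 and 13.04 at d 124. For bta-miR-142 (MI0005011) it was 12.04, 13.40, 10.88 and 11.68 at d 92 and 11.96, 11.17, 12.24 and 11.48 at d 124. In both, the d 92 library of steer 2 was the highest of the 8, and its d 124 library was the lowest of d 124. The differences were -0.16 and -0.29, and without d 92 replicate 2 they were 0.35 and 0.18. The part of blood in other differences of steer 2 was not tested.

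Of the remaining listed miRNAs, bta-miR-383 (MI0009823), whose gene neighbours SGCZ, was at 3.55, 2.87, 3.41 and 0 at d 92 and at 2.70, 3.71, 3.83 and 3.63 at d 124. The difference of 1.01 rests on the d 92 library of steer 4, which was at the floor, and was 0.19 without it. For bta-miR-449a (MI0009834), from a locus in CDC20B active in ciliated cells, the d 92 levels were 1.79, 0.93, 0 and 0 and the d 124 levels 0.031, 0, 1.39 and 0.61. Steers 1 and 2 were lower and steers 3 and 4 higher, and the difference was -0.17 (95% interval from -1.24 to 0.89). The rows bta-miR-505 (MI0009856) and bta-miR-2411 (MI0011456) had differences of 0.085 and -0.22, with 95% intervals that hold both signs, from -0.70 to 0.87 and from -0.85 to 0.41.

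**Figure D3:**
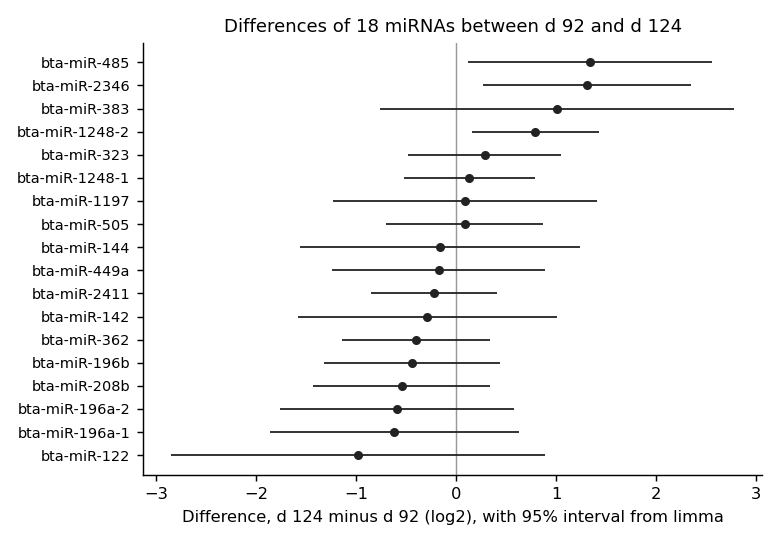
Difference between d 124 and d 92 (log2) of the 18 miRNAs, ordered by size, with 95% intervals from limma as bars. The intervals of bta-miR-485, bta-miR-2346 and bta-miR-1248-2 lie above 0 before adjustment, and those of the other 15 include 0.

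Ensembl rows held the smallest p-values of the table. Their RNA types are not given in the files. The smallest belonged to ENSBTAG00000042474, at 1.39, 1.90, 0.32 and 0.93 at d 92 and at 3.06, 3.08, 3.16 and 3.28 at d 124 in steers 1, 2, 3 and 4. Each steer was higher at d 124, and the lowest d 124 library lay above the highest of d 92. The difference was 2.01 (standard error 0.38, 4.03-fold, adjusted p = 0.152 from limma), and 0.61 with log2(value + 10). At d 0 its level was 2.99 ± 0.65 (SD, n = 4), near that of d 124, so the d 92 libraries were the low ones.

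A row with little spread within each time was ENSBTAG00000042680, at 6.2, 6.26, 6.31 and 6.13 at d 92 and at 7.04, 7.02, 6.93 and 6.94 at d 124. Within steers the difference was 0.83, 0.76, 0.61 and 0.82, and the SD within a time was 0.080 at d 92 and 0.054 at d 124. At d 0 it was at 6.32 ± 0.087 (SD, n = 4), so d 0 and d 92 lay together below d 124. The difference was 0.76 (standard error 0.20, 1.69-fold, adjusted p = 0.522 from limma). This row alone passed an adjusted p of 0.05 in some fits, at 0.0469 with every varying row tested and at 0.0158 with log2(value + 10), and the adjusted p was 0.884 with the steer as a block. It was picked out after its values were seen, though it is also among the 6 that the rule for named rows takes.

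Among rows lower at d 124 the smallest p belonged to ENSBTAG00000036968, at 3.42, 1.47, 2.37 and 2.08 at d 92 and at 0, 1.06, 0 and 0 at d 124. At d 124, 3 of 4 libraries were at the floor, and the groups did not overlap. The difference was -2.07 (standard error 0.42, adjusted p = 0.171 from limma). With log2(value + 10) it was -0.46. The smallest p of a miRBase row was that of MI0009750, at 2.15, 2.63, 1.3 and 3.83 at d 92 and at 1.91, 0, 0 and 0.61 at d 124. It was lower in 4 of 4 steers, but the level of steer 1 at d 124 lay among those of d 92. The difference was -1.85 (standard error 0.57, adjusted p = 0.741 from limma). At d 0 it was at 0.35 ± 0.67 (SD, n = 4), so here the d 92 libraries were the high ones.

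**Figure D4:**
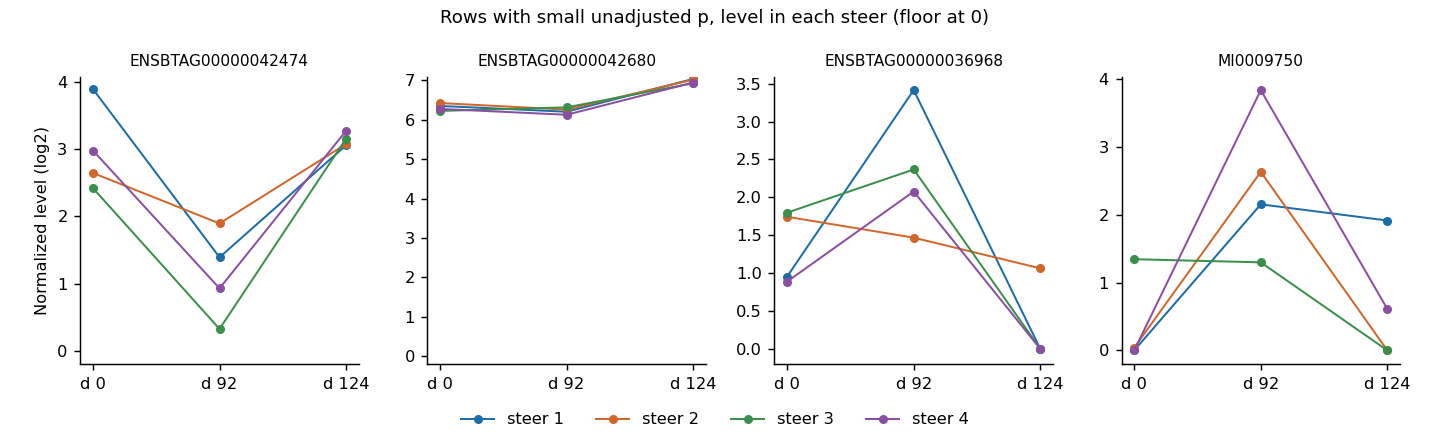
Normalized level (log2, floor at 0) in each steer at d 0, d 92 and d 124 for ENSBTAG00000042474, ENSBTAG00000042680, ENSBTAG00000036968 and MI0009750. The d 124 points of the first pair lie above all d 92 points, and those of the third panel lie below them, with 3 of 4 at the floor.

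The 30 Ensembl rows higher at d 124 within the limits of unadjusted p and 1.3-fold had mean levels between 0.25 and 8.5, with a median of 4.44. Their differences ran from 0.51 to 2.01, with a median of 1.05. Of the 30, 23 were higher in 4 of 4 steers, and 29, 30 and 29 were higher in steers 2, 3 and 4 against 25 in steer 1. Such counts follow in part from picking the rows as higher in these libraries. Over all 634 Ensembl rows, 62.1%, 45.6%, 42.6% and 46.4% were higher in steers 1, 2, 3 and 4. At d 92, 9 of the 30 were at the floor in some library and 3 in all 4. The d 0 mean lay above that of d 92 in 25 of the 30, and the d 124 mean above that of d 0 in 28. Both counts also follow in part from picking rows that were low at d 92 and high at d 124. Their share over all Ensembl rows was not computed. In 15 of the 30 every d 124 library lay above every d 92 library. Over all 634 Ensembl rows tested, 21 (3.31%) had such a gap upward and 8 (1.26%) downward, and over the 368 miRBase rows 0 (0%) had it upward and 4 (1.09%) downward.

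Some of these rows are near copies. A set of 3, with differences of 1.09, 1.06 and 1.05, differed from each other by at most 0.13 in any of the 12 libraries, and another pair by at most 0.29. Such rows can share reads and do not count as separate results. The 1314 varying rows hold 1100 distinct profiles, and the 1002 tested rows hold 974. With identical rows counted once, 41 rows passed the limits and 0 the adjusted p.

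The 4 Ensembl and 3 miRBase rows lower at d 124 all had low mean levels, at most 2.15 and 2.12. At low levels the table is coarse. Values above the floor fall on steps that many rows share, and the lowest step lay at 0.91, 0.93, 0.32 and 0.93 at d 92 and at 0.031, 0.54, 0.83 and 0.61 at d 124 in steers 1, 2, 3 and 4, with 57 to 131 rows on it. A row at that step in a pair of libraries therefore differs between them by the gap of the steps alone. In bta-miR-2346, steer 4 was on that step at both times, so its difference of -0.32 is that gap. Values on the lowest step also occur elsewhere in bta-miR-2346 and in bta-miR-449a, bta-miR-1197, ENSBTAG00000042474 and MI0009750. Their part in the differences of these rows was not tested. None of the rows went from above the floor in all d 92 libraries to the floor in all d 124 libraries, and 2 rows, both Ensembl, had the reverse.

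Steer 1 stood apart from the other steers in how the classes moved. In steer 1 65.5% of miRBase rows were lower at d 124 and 62.1% of Ensembl rows were higher, with medians of -0.24 and 0.15. Over both classes together the median in steer 1 was 0. Under quantile normalization a shift of 1 class goes with an opposite shift of the other, so these are not separate results. In steers 2, 3 and 4 the medians lay between 0.019 and 0.060 for miRBase rows and between -0.057 and 0 for Ensembl rows. The d 124 library of steer 1 had the lowest median value of miRBase rows among the 8 libraries and the highest of Ensembl rows, and its lowest step above the floor was also the lowest of the 8.

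**Figure D5:**
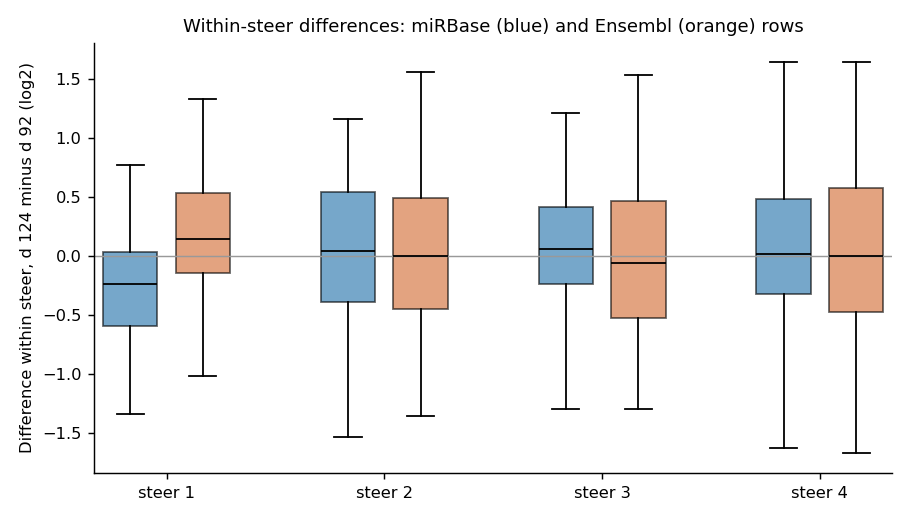
Difference between d 124 and d 92 within each steer (log2) over 368 miRBase rows (blue) and 634 Ensembl rows (orange). Boxes span the quartiles with the median as a line and whiskers reach from the 5th to the 95th percentile of rows; in steer 1 the medians are -0.24 and 0.15, and in the other steers they are near 0.

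What the comparison could resolve depended on the level. The median 95% half-width of a difference was 1.19 for miRBase rows at mean levels up to 2, 0.74 at levels from 6 to 8 and 0.56 above 12. In that last class 63 miRBase rows had a median absolute difference of 0.13, and the largest absolute difference was 0.48. At levels above 10, 0 rows of either class passed the limits of unadjusted p and 1.3-fold. The 11 tested rows without a recovered level had differences between -0.47 and 0.40, with no unadjusted p under 0.207.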

How the data were processed

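Reads of small RNA libraries were aligned to bosTau4 and quantified and normalized with the Quantile algorithm of StrandNGS by the authors. No source used here gives its version or how copies were counted. Per library, 1 deposited column holds log2 values from which the median of the row over 12 libraries had been subtracted. The base was taken as 2, with which recovered values sum to between 1485756 and 1529154 per library. Subtracted medians were recovered for 1302 of 1314 varying rows. A median of 0 was set for rows at the floor in 7 or more libraries that shared a higher value in a library with another such row. For other rows, values were matched to levels that libraries share (tolerance 3e-06, 2 more matches than the next candidate). At least 4 distinct matches were needed, or fewer in rows with fewer distinct values. Differences do not depend on the medians. The recovery and the fits were tested on simulated data.

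The fit used limma 3.58.1 under R 4.3.3 for rows over the floor in 4 or more libraries (robust, no trend, time as the only term, 12 libraries), and p-values were adjusted by Benjamini-Hochberg over 1002 rows. No trend was used because the mean of a centred row is not its level. For the 18 named miRNAs, two-sided exact permutation p-values came from 70 regroupings and are unadjusted. Replicates are different steers. The members, lists and tests were chosen with earlier results of these data known. Named rows are the miRNAs of the study's tables and, per class and direction, 6 rows with the smallest p that moved alike in 4 steers, of which 4 identifiers are printed. Of the miRNA lists, names could be paired for 1 of 7 of skeletal muscle, 2 of 5 of blood cells, 1 of 3 of liver, 3 of 34 of the DLK1-DIO3 cluster, 0 of 1 of endothelium, 0 of 5 of fibroblasts and 0 of 15 of adipose tissue, and 0 passed the adjusted p. Steers pair the libraries by the code in their labels. Deviations of same-steer libraries had correlations of 0.21, -0.0085, 0.097 and 0.18 over tested rows. Those of different steers ran from -0.21 to 0.17, so the 2 ranges overlap. Levels and plots used Python 3.11.15, numpy 2.4.6, pandas 2.3.3, scipy 1.17.1 and matplotlib 3.10.9.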

Additional observations from a re-analysis of the deposited data

Results flagged for a closer look

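Of 44 groups of 4 libraries tested by Dixon's gap, 2 stood out, and 2.2 are expected by chance. At d 92, steer 4 had 13.36 for bta-miR-122 (log2 level) and the remaining steers 9.35 to 9.95, so the gap took 0.850 of the range. For ENSBTAG00000036968 the d 124 library of steer 2 was the only one above the floor, at 1.06, and with the rest tied the gap is the whole range (1) whatever that value.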

How the results depend on the processing

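With every varying row tested, or with log2(value + 10), 1 row passed the adjusted p in limma, ENSBTAG00000042680 in both, and under the other alternatives 0 did. The number past unadjusted p and 1.3-fold was 62 in the d 92 and d 124 libraries alone with the steer as a block (36 higher, 26 lower; 11 miRBase rows, 2 higher and 9 lower), 43 with that block over 12 libraries, and 26 among rows above the floor in all 12 libraries (2 miRBase rows), where fewer rows were tested. Leaving out 1 library gave 32 to 62 rows, 4 to 11 of them miRBase and 26 to 55 Ensembl, with the highest Ensembl and total counts without d 124 replicate 1 and the 11 miRBase rows without d 92 replicate 3. No fit with the block gave a row past the adjusted p. Lower rows past the unadjusted limits were 10 with the block over 12 libraries, against 7. With the block in the d 92 and d 124 libraries alone bta-miR-2346 missed these limits, and without the block there bta-miR-485 missed them. With log2(value + 10), bta-miR-2346 and bta-miR-485 missed them. In leave-one-out fits bta-miR-1248-2 missed them without d 124 replicate 4, and bta-miR-2346 without d 124 replicate 3. There bta-miR-485 missed them without d 92 replicate 1, 3 or 4 and without d 124 replicate 2 or 4. Its unadjusted p was smallest without d 92 replicate 2 (0.000834, limma). The difference of a row can move only where a library is left out, libraries are centred on their median or log2(value + 10) is used. The other settings leave it fixed, so its sign could not change there. Rows named by identifier alone were picked for moving alike in 4 of 4 steers. Of 22 named rows, 16 had no change of sign in the alternatives run for them. For 7 of the 22 the filter of all 12 libraries above the floor gave no value. The others reversed in leave-one-out fits, which ranged from -0.0053 to 0.48 for bta-miR-323, -0.47 to 0.20 for bta-miR-449a, -0.31 to 0.47 for bta-miR-1197, -0.42 to 0.35 for bta-miR-144, -0.099 to 0.28 for bta-miR-505 and -0.66 to 0.18 for bta-miR-142. Without a reversal, the range was -0.35 to -0.0085 for bta-miR-2411 and 0.042 to 0.32 for bta-miR-1248-1. The difference in rows above the floor was 13.1 to 42.8 when 1 library was left out, the ends being without d 124 replicate 1 and without d 92 replicate 3 (exact permutation p = 0.571 and 0.0571). In the latter case the d 92 libraries had 892, 893 and 902 such rows and those of d 124 had 905 to 969. With such full separation, 0.0571 is the smallest p the exact permutation test can give there. The count with identical rows merged was added after the data were seen. Precision falls near the floor, and depth is unknown.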
